A study of Mus musculus with 12 samples.

Results

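The response of scramble cells to 1 hr of PDGF-AA was described from 6 of the 12 RNA-seq samples of the study. These were all scramble samples, 3 stimulated (+PDGF-AA) and 3 unstimulated (-PDGF-AA), chosen by their labels and not by any measured value. All 15037 genes that passed a filter for low counts were examined, of 51490 in the table, and changes of any size and in either direction were counted. The study asked which gene expression and splicing changes downstream of PDGFRα signaling depend on the RNA-binding protein *Srsf3*. The other 6 samples come from cells with an shRNA against *Srsf3* (shSrsf3), with and without ligand, again 3 of each. All 4 groups were grown from immortalized mouse embryonic palatal mesenchyme (iMEPM) cells, a line derived from the palatal shelves of 1 male *Cdkn2a*-/- embryo. Scramble cells carry a lentiviral scramble shRNA with EGFP and puromycin resistance, and were selected with puromycin and sorted for GFP. They are therefore 1 pooled, transduced line, and the 3 replicates per group are separate samples of that line. Stimulated cells received PDGF-AA at 10 ng/mL and were harvested 1 hr later, and unstimulated cells received none. Serum starvation before ligand is described for other experiments of the study and is not stated for the RNA-seq cultures. Both groups share the deletion, the vector, and the selection.

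PDGF-AA is a dimeric ligand that binds the receptor tyrosine kinase PDGFRα, which is required in the neural crest-derived mesenchyme of the face and palate. The activated receptor signals through PI3K and Akt and through Ras and the MAP kinase ERK. In growth factor-treated cells, ERK phosphorylates factors that are already present and thereby switches on immediate early genes, many of which encode transcription factors, without new protein synthesis. Akt phosphorylates FoxO transcription factors, which then leave the nucleus, so that transcripts that depend on them decline.

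The total expected count per scramble sample was between 39174723 and 65707808. Levels are given as CPM, for which library sizes were adjusted with trimmed mean of M-values (TMM) factors. A gene was called when edgeR's quasi-likelihood test, fitted to all 12 samples, gave a p of 0.05 or less after Benjamini-Hochberg adjustment over all tested genes. Among the scramble samples, -PDGF-AA replicate 3 lay farthest from its fellow replicates, with an SD of 0.277 for its difference from them in log2(CPM + 0.5) over 12284 genes. This SD was 0.143 to 0.227 in the other scramble samples and 0.122 to 0.183 in the shSrsf3 samples. The spread of the shSrsf3 samples also enters the fit, and its part in the count of called genes was not tested. The other -PDGF-AA replicates of scramble cells were among the 3 libraries of lowest mapping rate. Markers of palatal mesenchyme were present, with 21 of 25 tested and a summed level of 5694 to 5867 CPM without ligand and 5568 to 5742 CPM with ligand, although *Tbx22* had no count. *Vim*, an intermediate filament gene of mesenchyme, was at 4215 to 4456 CPM. Summed markers were between 4.81 and 6.25 CPM for epithelium (3 of 9 tested) and between 1.23 and 2.34 CPM for blood (2 of 7). They were between 30.6 and 34.6 CPM for endothelium (4 of 6), 24 and 26.4 CPM for muscle (2 of 6), and 321 and 357 CPM for bone and cartilage (4 of 7). Those for neural cells and glia (4 of 7) were 29.5 to 30.8 CPM without and 32.0 to 32.9 CPM with ligand. None of these marker genes of other cell types was called, and *Cldn5*, Hbb-bs, *Sox10*, and *Myod1* had no count. *Cdkn2a* was listed at 3.59, 3.06, and 3.02 CPM without ligand and 3.12, 3.35, and 3.08 CPM with ligand, although the line is *Cdkn2a*-/-, and gene-level counts do not show which exons these reads come from. *Srsf3* was at 199 to 212 CPM and 215 to 231 CPM and was not called (log2 fold change 0.11 ± 0.038 SE, adjusted p = 0.133). In bulk samples such as these, fewer cells with a transcript cannot be told apart from less transcript per cell.

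PDGF-AA changed the level of 608 of the 15037 tested genes within 1 hr, which is 4.04%. In this fit the number of genes that rose, 301 (2.00%), was close to the number that fell, 307 (2.04%). This balance moved with the method, with 498 higher and 379 lower in DESeq2's test. Most of the 608 changes were small. The median size of a called change was 0.30 on the log2 scale, or 1.23-fold, and the smallest called change was 1.09-fold. Of the 608 genes, 233 (38.3%) changed by less than 1.2-fold and 280 (46.1%) by 1.2-fold to less than 1.5-fold. A further 65 genes (10.7%) changed by 1.5-fold to less than 2-fold. Only 30 genes, 4.93% of those called and 0.200% of those tested, changed by at least 2-fold, 14 upward and 16 downward. The smallest changes were more often upward, with 138 higher and 95 lower genes under 1.2-fold. Between 1.2-fold and 1.5-fold the counts were 119 higher and 161 lower. The 3 stimulated and 3 unstimulated samples did not overlap for 607 of the 608 genes, against 2821 (18.8%) of all tested genes. Of all tested genes, 2643 had an unadjusted p under 0.05 in the same test. The direction of all 608 genes was kept when each of the 6 scramble samples was left out in turn. For the 607 genes without overlap this was all but fixed in advance, so that it is not a test of stability. Of the 608 genes, 222 (135 higher, 87 lower) were called in all 6 of these fits. The count of called genes moved from 243 without +PDGF-AA replicate 3 to 1470 without -PDGF-AA replicate 3, and was 336 without +PDGF-AA replicate 1 and 349 without -PDGF-AA replicate 2. It was 242 (144 higher, 98 lower) when only the 6 scramble samples were fitted. The count of 30 genes with a 2-fold change was 74 without -PDGF-AA replicate 3 and 18 without +PDGF-AA replicate 3.

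**Figure D1:**
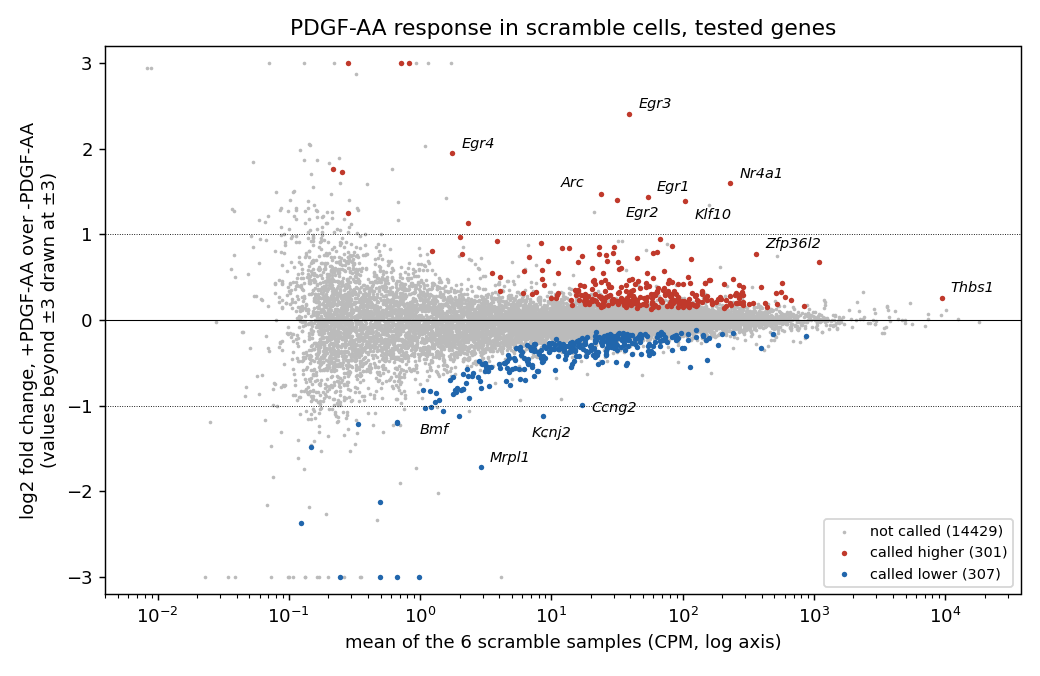
Each point is a tested gene, with the mean CPM of the 6 scramble samples on a log axis and the log2 fold change of +PDGF-AA over -PDGF-AA on the vertical axis, and dotted lines at a 2-fold change. The 301 genes called higher (red) include well expressed genes far above the line such as *Egr3*, *Nr4a1*, and *Klf10*, whereas most of the 307 genes called lower (blue) lie above the lower line or at low levels, and 7 called genes beyond ±3 are drawn at the edge.

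Genes that rose and genes that fell differed in level and structure as descriptions of these sets. The genes that rose had a median mean count of 2505 per sample, against 881 for the genes that fell and 940 for all tested genes. Median exon numbers were 7 for genes that rose, 5 for genes that fell, and 7 for all tested genes. The transcripts of both sets were longer at the median, with 4569.5 spliced bases for genes that rose and 4515.5 for genes that fell against 4102 overall. Protein-coding genes made up 97.7% of the genes that rose, 93.5% of the genes that fell, and 85.7% of the tested genes. The depth sets a limit here, because a low gene must change more than an abundant gene to be called. In the plot of fold change by level, the called changes come closer to 0 as the level rises.

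Among called genes with a mean count of at least 50, the largest rises were those of *Egr3* and *Egr4*, early growth response (EGR) factors. These zinc finger transcription factors are classic immediate early genes downstream of ERK, and the Nab proteins are corepressors that bind them. Of the 6 genes of this list, 5 (83.3%) rose and none fell, against 2.00% and 2.04% of all tested genes, with a median log2 fold change of 1.42 against -0.01 for all tested genes. This list and those below were written with earlier results of these data known, so that their counts and ranks are descriptions. *Egr3*, which lies at chr14:70314350-70320063 on the plus strand of GRCm39 with 2 exons, was at 13.2, 13.5, and 10.9 CPM without ligand and 59.4, 76.4, and 63.0 CPM with ligand. All stimulated samples were above all unstimulated samples, and the rise was the largest of that group (log2 fold change 2.41 ± 0.13 SE, 5.32-fold, adjusted p = 3.08e-07). *Egr1*, the founding member of the family, was at 30.6, 31.6, and 25.8 CPM without and 68.5, 93.9, and 75.7 CPM with ligand. Its groups were again well apart (1.44 ± 0.11, adjusted p = 9.66e-06). *Egr2* was at 18.7, 19.2, and 14.5 CPM without and 38.2, 53.9, and 45.3 CPM with ligand (1.4 ± 0.15, adjusted p = 0.000166). *Egr4* was the least abundant member, at 0.779, 0.782, and 0.630 CPM without and 2.71, 2.98, and 2.72 CPM with ligand (1.95 ± 0.18, adjusted p = 4.07e-05). In all 4 genes, -PDGF-AA replicate 3 was the lowest sample, and all 4 remained called without any 1 scramble sample. *Nab2* rose by a smaller amount, from 167 to 186 CPM without ligand to 205 to 227 CPM with ligand (0.27 ± 0.051, adjusted p = 0.00834).

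AP-1 transcription factors, which are dimers of *Fos*, *Jun*, and Atf proteins, responded unevenly. Of 11 tested members 6 (54.5%) rose and none fell, against 2.00% and 2.04% of all tested genes, with a median log2 fold change of 0.28. *Fosl1*, which encodes Fra-1, was at 48.8, 49.8, and 38.9 CPM without and 82.8, 97.3, and 85.1 CPM with ligand (0.95 ± 0.10, adjusted p = 0.000172). *Fosb* was at 6.34, 7.06, and 4.36 CPM without and 10.4, 11.6, and 10.7 CPM with ligand (0.90 ± 0.14, adjusted p = 0.00263). Neither gene had overlapping groups. *Junb*, a partner of the *Fos* proteins, was at 54.2, 61.7, and 57.3 CPM without and 80.9, 95.7, and 81.8 CPM with ligand (0.58 ± 0.089, adjusted p = 0.00251). *Atf3* rose by 0.79 and *Fosl2* by 0.39 on the log2 scale. *Jun* rose by 0.28 (adjusted p = 0.0139) and was no longer called without +PDGF-AA replicate 3 (adjusted p = 0.0643). *Fos* itself, the best known immediate early gene, was at 11.9, 10.5, and 11.5 CPM without and 11.0, 11.3, and 10.8 CPM with ligand. The stimulated samples lay within the range of the unstimulated samples, and *Fos* was not called (-0.04 ± 0.094, adjusted p = 0.886).

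The list of other early response genes held the highest number of rises. Of 46 tested, 23 (50.0%) rose and none fell, against 2.00% and 2.04% of all tested genes, with a median log2 fold change of 0.26. *Nr4a1*, an orphan nuclear receptor induced by growth factors, was at 133, 128, and 83.8 CPM without and 292, 405, and 344 CPM with ligand. The groups were far apart although -PDGF-AA replicate 3 lay below the other unstimulated samples (1.59 ± 0.16, 3.02-fold, adjusted p = 6.09e-05). Its relatives did not pass the test, with a log2 fold change of -0.00 for *Nr4a2* (adjusted p = 1.00) and 0.72 for *Nr4a3* (adjusted p = 0.0548). *Arc*, a serum-inducible gene best known from neurons, was at 14.8, 13.8, and 9.71 CPM without and 33.1, 38.2, and 33.7 CPM with ligand (1.47 ± 0.12, adjusted p = 1.4e-05). *Zfp36l2*, whose protein binds AU-rich elements and promotes mRNA decay, was at 269, 268, and 262 CPM without and 446, 476, and 447 CPM with ligand. It was among the most tightly replicated changes (0.78 ± 0.047, adjusted p = 7.34e-07). The polo-like kinase gene *Plk3* was at 16.5, 17, and 15.7 CPM without and 28.3, 31.4, and 29.0 CPM with ligand (0.85 ± 0.048, adjusted p = 4.47e-07). The circadian repressor genes *Bhlhe40*, *Per2*, and *Per1* rose by 0.87, 0.55, and 0.46 on the log2 scale, as did the Notch effector gene *Hes1* (0.49). *Per1* was not called without +PDGF-AA replicate 3 (adjusted p = 0.0633). Other rises were those of *Csrnp1* (0.84), the antiproliferative gene *Btg2* (0.61), *Arid5a* (0.59), the epithelial to mesenchymal transition factor *Snai1* (0.47), *Cebpb* (0.43), the serum and glucocorticoid kinase gene *Sgk1* (0.32), and *Ier5* (0.30). *Ier2* rose by 0.22 and was no longer called without +PDGF-AA replicate 1 or 2, with an adjusted p of up to 0.0765. *Ier3* was 0.35 higher but did not pass the test (adjusted p = 0.0794).

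Among 11 Kruppel-like factors, 2 (18.2%) rose and none fell, against 2.00% and 2.04% of all tested genes. *Klf10*, a TGF-beta-inducible repressor, had the smallest p of all tested genes. It was at 56.0, 58.6, and 58.6 CPM without and 151, 157, and 148 CPM with ligand, values that were tight in both groups (1.39 ± 0.049, 2.63-fold, adjusted p = 3.03e-09). The gene lies at chr15:38291703-38300959 on the minus strand of GRCm39 and has 4 exons. *Klf16* rose by 0.43 (adjusted p = 0.000252). *Myc* was at 200.3, 198, and 188 CPM without and 207, 207, and 217 CPM with ligand. Its groups did not overlap, but the difference did not pass the test (0.11 ± 0.051, adjusted p = 0.293). The serum response factor gene *Srf* was at 201, 189, and 162 CPM and at 198, 210.5, and 200.0 CPM, with overlapping groups (0.14 ± 0.061, adjusted p = 0.245). None of the 26 tested SRF and contractile cytoskeleton genes was called, with a median of -0.00. In a list this short that is close to the share of 4.04% called among all tested genes. However, 2 were called higher and 5 lower without -PDGF-AA replicate 3, and 2 higher without +PDGF-AA replicate 2 or in DESeq2's test. Other genes with a large rise were the bradykinin receptor gene *Bdkrb2* (1.32, 1.08, and 1.87 CPM without and 2.81, 3.33, and 3.46 CPM with ligand, 1.13 ± 0.19, adjusted p = 0.00414) and *Foxs1*, a forkhead factor gene (0.96 ± 0.17, adjusted p = 0.00644). The somatostatin receptor gene *Sstr2* was at 2.39, 2.64, and 2.92 CPM without and 5.58, 4.66, and 4.95 CPM with ligand (0.93 ± 0.12, adjusted p = 0.000878). All 3 had groups that did not overlap.

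**Figure D2:**
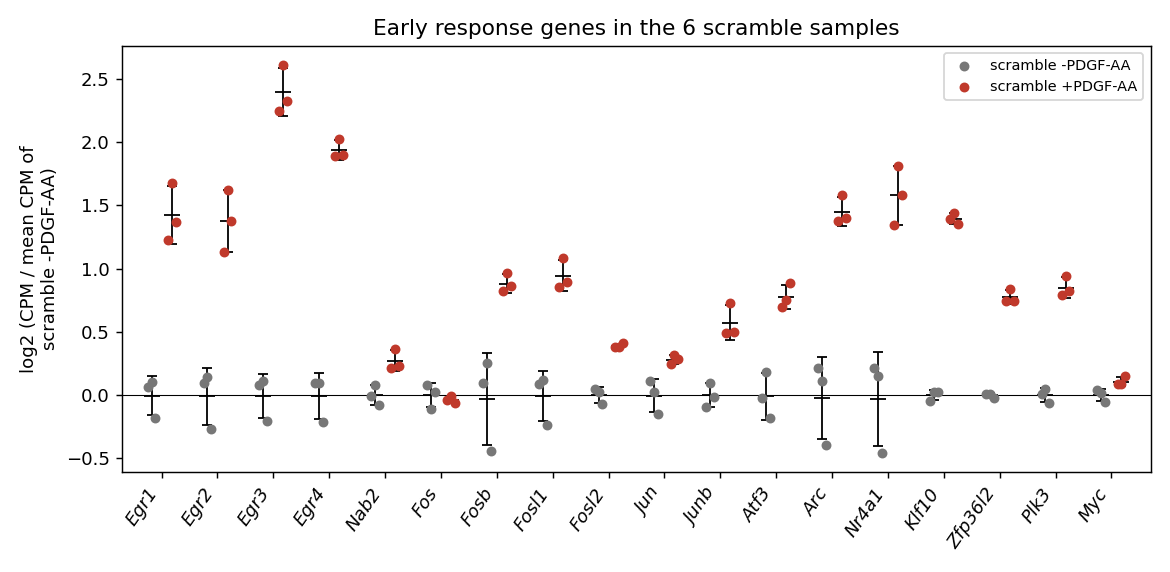
The vertical axis is the log2 ratio of each sample's CPM to the mean CPM of the 3 scramble -PDGF-AA samples for 18 early response genes, with the mean and SD of 3 samples in black. The stimulated samples (red) of *Egr3* lie above 2, those of *Fos* lie among the unstimulated samples (gray), and the lowest gray point of *Fosb*, *Arc*, and *Nr4a1* is -PDGF-AA replicate 3.

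Promoter sequences were examined because ERK acts on many early genes through the serum response element, whose core is the CArG box, and because the cAMP response element and EGR sites are common in such promoters. RefSeq promoters on GRCm38.p6, from 250 bases before to 50 bases after a transcript's start, were matched by symbol for 10729 tested genes with 13752 starts. Both strands were searched for the CArG box and for TGACGTCA (the cAMP response element), TGANTCA (AP-1), GCGNGGGCG (EGR), TGTTTAC (forkhead), and CCGGAAG (ETS), none of which lies within another. The CArG box was found in 3.36% of 298 promoters of genes that rose, 0.673% of 297 promoters of genes that fell, and 1.36% of all 13752. *Egr2*, which has several starts, supplied 4 of the 10 promoters of genes that rose. Counted once per gene, the shares were 3.08% of 227 genes that rose, 0.851% of 235 that fell, and 1.65% of all 10729. The cAMP response element was found in 7.38%, 2.36%, and 2.97% of promoters, respectively, and 9.69%, 2.98%, and 3.57% of genes. Shares were closer to each other for AP-1 (5.37%, 4.38%, and 5.11%), EGR (8.73%, 6.73%, and 10.3%), forkhead (2.35%, 3.37%, and 2.44%), and ETS (13.1%, 14.8%, and 16.5%) motifs. The windows below, chosen after the values were seen, are from *Egr2* and *Nr4a1*, which rose, from *Sstr2* and *Ch25h*, which also rose, and from *Srf* and *Dusp1*, which were not called. They are written 5′ to 3′ on the strand that carries the motif, with the motif in capitals.
*Egr2*, CArG box, chr10:67537787-67537816, plus strand: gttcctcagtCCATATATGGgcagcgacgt
*Egr2*, CArG box of another start, chr10:67537484-67537513, plus strand: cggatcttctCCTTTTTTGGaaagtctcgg
*Srf*, CArG box, chr17:46556225-46556254, minus strand: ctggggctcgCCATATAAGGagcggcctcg
*Sstr2*, cAMP response element, chr11:113619258-113619287, plus strand: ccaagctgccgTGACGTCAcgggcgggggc
*Ch25h*, cAMP response element, chr19:34475191-34475220, minus strand: agacggaagggTGACGTCActggggggagt
*Dusp1*, cAMP response element, chr17:26508597-26508626, minus strand: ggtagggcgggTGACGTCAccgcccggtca
*Nr4a1*, EGR motif, chr15:101266776-101266804, minus strand: atggagagggGCGGGGGCGccactgacgc
The motif began 72 bases before the start in both *Egr2* windows, and 82, 58, 61, and 143 bases before it in *Srf*, *Sstr2*, *Ch25h*, and *Dusp1*. Both *Egr2*, whose rise was 1.4, and *Srf*, which was not called, carry a CArG box close to the start, and a cAMP response element is found in *Dusp1* as well as in *Sstr2* and *Ch25h*. A promoter was in the table for 7 of the 15 genes with the largest rises and for 14 of the 15 with the largest falls.

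Some feedback inhibitors of the receptor and of ERK signaling rose. Of 21 tested genes 8 (38.1%) rose and none fell, against 2.00% and 2.04% of all tested genes. The median was 0.05, so that most members of the list stayed close to the median of all genes. *Dusp5*, a nuclear phosphatase of ERK, was at 24.1, 26, and 24.7 CPM without and 39.2, 39.8, and 40.6 CPM with ligand (0.68 ± 0.055, adjusted p = 1.4e-05). *Spry4*, a Sprouty inhibitor of receptor tyrosine kinase signaling, was at 12.1, 12.5, and 12.1 CPM without and 20.1, 19.7, and 19 CPM with ligand (0.68 ± 0.055, adjusted p = 1.4e-05). Both genes had tight, well separated groups. *Errfi1*, an inhibitor of the EGF receptor, was at 54.5, 47.5, and 38.2 CPM without and 77.4, 82.6, and 82.8 CPM with ligand (0.80 ± 0.11, adjusted p = 0.00100). *Dusp6*, the cytoplasmic ERK phosphatase, was at 34.7, 35.5, and 37.0 CPM without and 44.9, 43.6, and 46.6 CPM with ligand (0.33 ± 0.042, adjusted p = 0.000531). *Dusp4* rose by 0.55, *Spry1* by 0.41, and *Dusp14* by 0.22, and *Dusp2* was called at a low count that is given further on. *Dusp14* was lost in 4 and *Spry1* in 3 of the 6 fits that left out a sample (adjusted p up to 0.19 and 0.0754), while *Dusp4* was called in all 6. *Dusp1* was at 93.8, 84.9, and 61.0 CPM without and 56.6, 62.2, and 66.0 CPM with ligand. Its groups overlapped and its lower mean did not pass the test (-0.37 ± 0.12, adjusted p = 0.108). *Spry2* was 0.13 higher and was not called (adjusted p = 0.127). The count of 8 fell to 5 without -PDGF-AA replicate 1 or +PDGF-AA replicate 3.

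Genes for secreted signals and for enzymes that act outside the cell held the second highest number of rises among the lists. Of 34 tested genes 13 (38.2%) rose and none fell, against 2.00% and 2.04% of all tested genes, with a median of 0.21. The chemokine gene *Ccl2* was at 20.2, 22.8, and 20.7 CPM without and 39.1, 39.7, and 36.2 CPM with ligand (0.85 ± 0.11, adjusted p = 0.000816). The related chemokine gene *Ccl7* rose by 0.75, and the cytokine gene *Lif* by 0.70. Of the ligands of the EGF receptor, *Ereg* was at 37.0, 33.4, and 32.2 CPM without and 55.6, 54.8, and 58.4 CPM with ligand (0.72 ± 0.062, adjusted p = 2.04e-05). *Hbegf* was at 96.0, 94.1, and 73.6 CPM without and 136, 151, and 146 CPM with ligand (0.72 ± 0.092, adjusted p = 0.000657). *Areg*, another ligand of that receptor, had a log2 fold change of 0.88 but did not pass the test (adjusted p = 0.175). *Plau*, which encodes the protease urokinase, also rose (0.47 ± 0.062, adjusted p = 0.000867). *Vegfa*, the endothelial growth factor gene, was at 125, 127, and 128 CPM without and 170.3, 173, and 170.4 CPM with ligand (0.44 ± 0.053, adjusted p = 0.000423). *Thbs1*, which encodes thrombospondin, was the most abundant called gene named here, at 9114, 8460.1, and 8112 CPM without and 10273, 9919, and 10602 CPM with ligand (0.26 ± 0.050, adjusted p = 0.00939). Rises were also found for *Ptgs2* (0.43), *Csf1* (0.31), *Inhba* (0.20), and *Timp1* (0.18). The count of 13 was 9 without +PDGF-AA replicate 3, where *Thbs1* was not called (adjusted p = 0.0581). *Timp1* was lost in 5 and *Inhba* in 4 of the 6 fits that left out a sample (adjusted p up to 0.144 and 0.181). *Il6* and *Cxcl1* had log2 fold changes of 0.58 and 0.61 and did not pass the test (adjusted p = 0.194 and 0.323).

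Rises in the growth and metabolism lists were mostly small. For comparison, 2.00% of all tested genes were called higher and 2.04% lower, and 53.4% had a log2 fold change below 0. Of 24 ribosome biogenesis and *Myc* target genes 6 rose and none fell, with a median of 0.10. The highest rises were those of *Polr1b*, a subunit of RNA polymerase I (0.32), and the small nucleolar ribonucleoprotein gene *Nop56*, which was at 183, 178, and 181 CPM without and 218, 203, and 221 CPM with ligand (0.24 ± 0.036, adjusted p = 0.00192). *Rrp12*, *Ddx21*, *Nop2*, and *Gnl3* rose by 0.17 to 0.20. The count was 3 without +PDGF-AA replicate 1 or 3 and 9 without +PDGF-AA replicate 2. Of 24 genes of cholesterol synthesis and uptake, 4 rose, all 24 had a log2 fold change above 0, and the median was 0.14. Among them were *Ch25h*, which encodes cholesterol 25-hydroxylase (0.77), and *Insig1*, whose protein holds back sterol synthesis (0.24). *Insig1* was lost without -PDGF-AA replicate 2, +PDGF-AA replicate 1, or +PDGF-AA replicate 3 (adjusted p up to 0.187). This count was 13 without +PDGF-AA replicate 2 and 10 in DESeq2's test. Of 15 hypoxia and glycolysis genes, *Hk2*, the hexokinase gene (0.47, adjusted p = 3.16e-05), *Adm* (0.42), and the glucose transporter gene *Slc2a1* (0.22) rose, with only 1 called without +PDGF-AA replicate 3. Of 22 YAP target genes, the kinase genes *Nuak2* (0.78, adjusted p = 2.21e-05) and *Lats2* (0.16) and the tissue factor gene *F3* (0.38) rose, with 1 called without +PDGF-AA replicate 3. Among 14 tested TGF-beta, BMP, and Notch target genes, the feedback gene *Skil* rose by 0.36 and the inhibitory *Smad7* by 0.22, whereas the BMP feedback gene *Smad6* fell by 0.42 on the log2 scale. Neither rise in that list was called without +PDGF-AA replicate 3.

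Several lists held few or no called genes. No member was called among 25 cell cycle genes (median 0.04), 18 matrix genes (-0.00), or 21 tested interferon response genes (0.05), and 1 matrix gene was called without -PDGF-AA replicate 3. Of all tested genes 4.04% were called, and in lists this short none or 1 called gene is close to that share. Of 15 p53 targets only *Trp53inp1* was called and it fell by 0.50. Of 15 integrated stress response genes only *Slc7a11*, the cystine transporter gene, rose (0.29), and of 11 heat shock genes only *Dnajb1* (0.25). None of the 13 mitochondrially encoded transcripts was called (1 without -PDGF-AA replicate 3 or +PDGF-AA replicate 1, and 1 in DESeq2's test), with a summed level of 22190 to 31270 CPM without and 23475 to 30203 CPM with ligand. Of 7 nuclear long noncoding RNAs, *Neat1* fell by 0.33, from 412, 439, and 467 CPM to 315, 368, and 367 CPM (adjusted p = 0.0136), and was not called without +PDGF-AA replicate 1 (adjusted p = 0.0551). The median of these 7 RNAs, relative to the mean of the 6 samples, was lowest in that replicate at -0.312 and between 0.0634 and 0.164 in the other samples, and its part in the fall of *Neat1* was not tested.

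**Figure D3:**
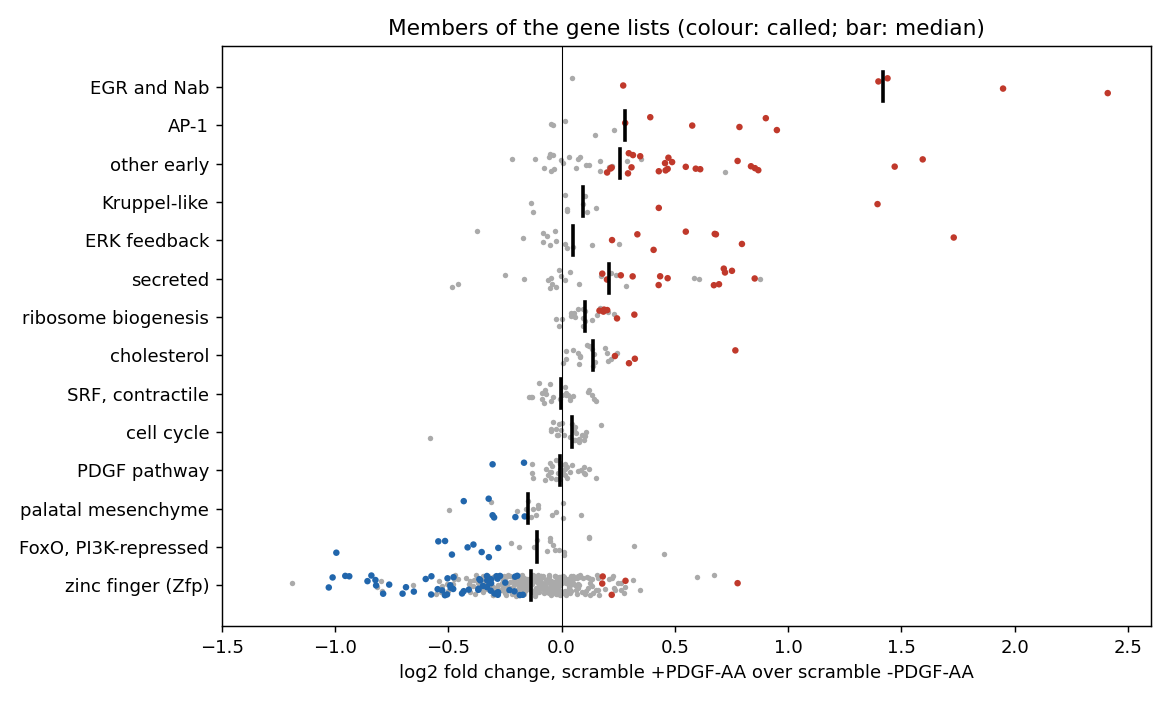
Each point is a tested member of a list, at its log2 fold change of +PDGF-AA over -PDGF-AA in scramble cells, with called genes in red (higher) or blue (lower), other genes in gray, and a black bar at the list's median. The EGR list has its median at 1.42, the SRF and cell cycle lists have no colored point, and the FoxO and zinc finger lists have 9 and 55 blue points.

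Genes that FoxO factors activate, or that PI3K signaling is known to repress, held the highest number of falls among the 29 gene lists. Because these lists were written with earlier results of these data known, this ranking is a description. Of 25 tested genes 9 fell and none rose, with a median of -0.11. *Ccng2*, a cyclin gene linked to cell cycle exit and a FoxO target, was at 22.3, 22.4, and 23.9 CPM without and 10.8, 12.3, and 11.4 CPM with ligand. Its level with ligand was 0.502 of that without, and the groups were far apart (-0.99 ± 0.056, adjusted p = 4.47e-07). The gene lies at chr5:93415116-93424095 on the plus strand of GRCm39 and has 5 exons. *Fbxo32*, the ubiquitin ligase gene atrogin-1, was at 15.7, 15.9, and 18.9 CPM without and 11.4, 11.5, and 11.8 CPM with ligand (-0.54 ± 0.084, adjusted p = 0.00249). *Pik3ip1*, whose protein binds and inhibits PI3K, was at 24.7, 27.6, and 27.8 CPM without and 17.9, 20.1, and 18.1 CPM with ligand (-0.51 ± 0.059, adjusted p = 0.000262). In each of these genes all stimulated samples were below all unstimulated samples. The FoxO genes themselves were among those that fell. *Foxo3* was at 63.9, 61.7, and 76.0 CPM without and 52.7, 51.4, and 50.1 CPM with ligand (-0.39 ± 0.062, adjusted p = 0.00318). *Foxo1* was at 16.9, 19.1, and 16.8 CPM without and 12.3, 15, and 12.3 CPM with ligand (-0.41 ± 0.088, adjusted p = 0.0175). Without -PDGF-AA replicate 2, +PDGF-AA replicate 1, or +PDGF-AA replicate 3, *Foxo1* was not called, with an adjusted p of up to 0.103. *Foxo4* was not called (-0.19, adjusted p = 0.179). *Irs2*, the insulin receptor substrate gene, was at 98.8, 91.2, and 89.9 CPM without and 73.7, 74.3, and 71.1 CPM with ligand (-0.35 ± 0.057, adjusted p = 0.00349). *Cdkn1b*, which encodes the cell cycle inhibitor p27, was at 108, 110.4, and 110.1 CPM without and 85.2, 90.3, and 87.5 CPM with ligand (-0.32 ± 0.037, adjusted p = 0.000278). *Klhl24* fell by 0.48 and *Txnip* by 0.28, and *Txnip* was not called without -PDGF-AA replicate 2 (adjusted p = 0.0518). *Insr*, *Sesn3*, and *Bcl6*, which are FoxO targets in other cells, had log2 fold changes of 0.12, -0.03, and 0.01 and were not called. The number of called genes was 7 to 10 when single samples were left out, and 8 when only scramble samples were fitted.

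Among genes outside that list, the largest falls of well counted genes included *Kcnj2*, an inward rectifier potassium channel gene. It was at 12.5, 11.1, and 11.6 CPM without and 5.58, 5.16, and 5.53 CPM with ligand (-1.11 ± 0.099, adjusted p = 3.10e-05), with tight groups that did not overlap. *Bmf*, a proapoptotic member of the Bcl-2 family, was at 2.55, 1.89, and 3.73 CPM without and 1.2, 1.24, and 1.34 CPM with ligand (-1.12 ± 0.23, adjusted p = 0.0146). It was not called without +PDGF-AA replicate 1 or 3 (adjusted p up to 0.0657). *Mrpl1*, a mitochondrial ribosomal protein gene, had the lowest log2 fold change in this group (-1.72 ± 0.34, adjusted p = 0.0121). Its samples were scattered, at 3.82, 6.53, and 3.08 CPM without and 1.86, 0.868, and 1.31 CPM with ligand, and it was not called without -PDGF-AA replicate 2 or +PDGF-AA replicate 3 (adjusted p up to 0.0644). *Dnajc28* was at 2.29, 1.93, and 1.89 CPM without and 0.847, 1.06, and 1.00 CPM with ligand (-1.06 ± 0.19, adjusted p = 0.00623). *Frat2*, a regulator of the kinase GSK3 (-0.91), and *Acrbp* (-0.85) also fell, and *Acrbp* was lost without -PDGF-AA replicate 2 or +PDGF-AA replicate 3 (adjusted p up to 0.0734).

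Few genes of the receptor and its signal relay passed the test. Of 38 tested genes of the PDGF pathway 2 fell and none rose, a share of 5.26% called lower against 2.04% of all genes, with a median of -0.01. *Pdgfra*, the receptor of the ligand, was at 71.5, 69.3, and 81.0 CPM without and 60.4, 59, and 60.3 CPM with ligand. All stimulated samples were below all unstimulated samples (-0.30 ± 0.056, adjusted p = 0.00764), and the gene remained called when any 1 sample was left out (adjusted p up to 0.0367). In a fit of the 6 scramble samples alone it was not called (adjusted p = 0.0548). The adaptor gene *Gab1* fell by 0.17 (adjusted p = 0.0438) and was lost in 4 of the 6 fits that left out a sample (adjusted p up to 0.158). *Pdgfrb*, the other receptor gene, was at 344 to 379.7 CPM without and 342 to 379 CPM with ligand, with overlapping groups (0.01 ± 0.051, adjusted p = 0.974). The ligand gene *Pdgfa* also had overlapping groups (-0.07 ± 0.062, adjusted p = 0.603).

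Some transcription factor genes that mark palatal and facial mesenchyme fell by small amounts. Of 21 tested genes of that list, *Pdgfra* included, 6 (28.6%) fell and none rose, against 2.04% and 2.00% of all tested genes. The median was -0.15, and 18 of the 21 (85.7%) had a log2 fold change below 0, against 53.4% of all tested genes. *Dlx5*, a patterning factor of the jaw, was at 24.9, 27.8, and 22 CPM without and 17.7, 20.0, and 17.6 CPM with ligand (-0.43 ± 0.085, adjusted p = 0.0116). *Pax9*, which is required for palate and tooth development, was at 17.1, 18.3, and 17.7 CPM without and 14.1, 15.2, and 13.9 CPM with ligand (-0.30 ± 0.058, adjusted p = 0.0111). Both had groups that did not overlap, and both were lost without +PDGF-AA replicate 1 or 3 (adjusted p up to 0.0681 and 0.0685). The LIM homeobox genes *Lhx8* and *Lhx6* fell by 0.32 and 0.20, and *Prrx1* by 0.16. *Osr2*, *Shox2*, *Osr1*, and *Barx1* had log2 fold changes of -0.50, -0.31, -0.19, and -0.16 and were not called. This group depended strongly on single samples, with 1 gene called without +PDGF-AA replicate 1, 2 without +PDGF-AA replicate 3, 10 without -PDGF-AA replicate 3, and none in a fit of the scramble samples alone, in which 242 genes were called.

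**Figure D4:**
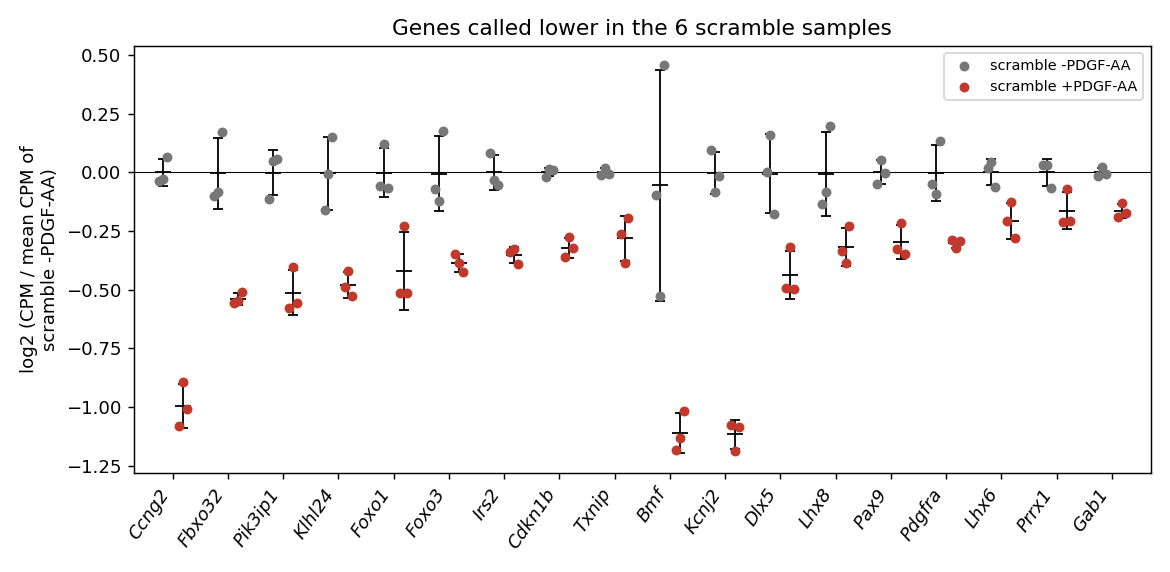
The vertical axis is the log2 ratio of each sample's CPM to the mean CPM of the 3 scramble -PDGF-AA samples for 18 genes called lower, with the mean and SD of 3 samples in black. Every stimulated sample (red) lies below every unstimulated sample (gray) of its gene, *Ccng2* and *Kcnj2* fall by about a log2 unit, and the gray points of *Bmf* are widely spread.

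Zinc finger genes made up a large part of the falls. Among the 15 genes with the largest falls were *Zfp784*, *Zfp791*, *Zfp108*, *Zfp712*, *Zfp94*, *Zfp128*, and *Zfp14*, and all tested protein-coding genes with a Zfp symbol were therefore counted after these values had been seen. Many such genes encode repressors with a KRAB domain, although the symbol alone does not say so. Of these 357 genes, 55 (15.4%) fell and 5 (1.4%) rose, against 2.04% and 2.00% of all tested genes. The median log2 fold change was -0.14, and 77.9% of the 357 genes were below 0 against 53.4% of all genes. The 55 genes lay on 13 chromosomes and had log2 fold changes of -1.03 to -0.17 with a median of -0.41. Over all 357 genes the median per sample was 0.0220, 0.0426, and 0.129 without and -0.0544, -0.0732, and -0.0455 with ligand in log2(CPM + 0.5) relative to the mean of all 6. In this median all stimulated samples were below all unstimulated samples, and -PDGF-AA replicate 3 was the highest. The medians over all tested genes were also apart but much smaller, at 0.0035, 0.005, and 0.0031 without and -0.0041, -0.0014, and -0.0036 with ligand. *Zfp14* was at 2.55, 2.09, and 2.39 CPM without and 1.30, 1.33, and 1.34 CPM with ligand (-0.82 ± 0.14, adjusted p = 0.00534) and was called in all fits that left out a sample. *Zfp791* was at 1.56, 1.59, and 1.72 CPM without and 0.830, 0.815, and 0.773 CPM with ligand (-1.01 ± 0.20, adjusted p = 0.0115), and was not called without +PDGF-AA replicate 3 (adjusted p = 0.0617). *Zfp784* had the largest fall of the group (-1.03 ± 0.22) and was lost without -PDGF-AA replicate 3, +PDGF-AA replicate 1, or +PDGF-AA replicate 3 (adjusted p up to 0.0899). The count of 55 was 21 without +PDGF-AA replicate 3, 26 without +PDGF-AA replicate 1, 30 without -PDGF-AA replicate 2, and 17 with only the scramble samples fitted, while the median stayed between -0.15 and -0.09 when single samples were left out. Genes with a Zfp symbol had a median mean count of 404 against 940 for all genes, a median GC content of 44.0% against 49.2%, and 5 exons against 7, and the part of these features in the fall was not tested.

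The 16 genes with a 2-fold change that did not have a mean count of 50 rest on few reads. *Ppp1r3c*, a glycogen-targeting subunit of protein phosphatase 1, had 26, 37, and 53 counts without and 14, 10, and 9 counts with ligand, and fell in all fits that left out a sample (-2.13 ± 0.31, adjusted p = 0.00157). *Dusp2*, an ERK phosphatase gene, had 3, 5, and 9 counts without and 22, 25, and 25 counts with ligand. *Dlx3* had 4, 4, and 6 counts without and 17, 16, and 29 counts with ligand, and *Psma8* had 6, 7, and 11 and then 22, 22, and 29 counts. In each of these 4 genes the groups did not overlap once scaled to library size, but the calls of *Dusp2* and *Dlx3* were lost in 5 and that of *Psma8* in 4 of the 6 fits that left out a sample (adjusted p up to 0.126, 0.174, and 0.119). *Bco1* (6, 11, and 13 against 2, 2, and 3 counts), *Upk3bl* (9, 10, and 12 against 5, 3, and 6), *E030022I16Rik* (16, 25, and 26 against 9, 10, and 18), *Gm44168* (30, 39, and 66 against 21, 26, and 26), and *5430405H02Rik* (28, 46, and 61 against 28, 16, and 31) were called lower. The calls of *Upk3bl*, *E030022I16Rik*, *Gm44168*, and *5430405H02Rik* were lost in 5, 4, 4, and 3 of those fits (adjusted p up to 0.126, 0.152, 0.123, and 0.0738). The remaining genes share most of their sequence with another gene, so that reads may have been assigned to either. *Gm28052* had 88, 89, and 92 counts without and none with ligand, which is at least 39.2-fold lower, and 96.8% of the 31-base sequences of its transcripts also occur in other genes. *Gm6741* (55, 59, and 75 counts, at least 27-fold lower) and *Gm20691* (31, 51, and 59 counts, at least 19.8-fold lower) had no count with ligand. *Gm5884* had no count without and 75, 125, and 94 counts with ligand (at least 25-fold higher), and *Gm20507* had none without and 32, 27, and 44 counts with ligand (at least 8.60-fold higher). For these 4 genes 99.0% or more of the 31-base sequences are shared. *Pram1* (22, 24, and 20 counts against 1, 0, and 0) and *Gstp2* (9, 0, and 4 against 138, 31, and 77) share 85.7% and 57.1%. Calls were lost in 5 of those fits for *Gstp2* (adjusted p up to 0.164), without +PDGF-AA replicate 3 for *Pram1* (0.0687) and *Gm20691* (0.0511), and without -PDGF-AA replicate 2 or +PDGF-AA replicate 3 for *Gm20507* (up to 0.0643). The direction of these 7 genes is uncertain because of the shared sequence.

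The response was also set beside that of shSrsf3 cells, which were measured in 6 separate samples and share no control with the scramble cells. In shSrsf3 cells 85 genes (0.565%) were called upon PDGF-AA. Total counts of stimulated samples were 30958870 to 37334636 in shSrsf3 and 57313006 to 65707808 in scramble cells. Those of unstimulated samples were 37069995 to 76123207 and 39174723 to 59229106, and the part of depth in the count of 85 was not tested. Of the 301 genes that rose in scramble cells, 288 (95.7%) had a log2 fold change above 0 in shSrsf3 cells against 48.2% of all genes, and 59 of them were called there. Of the 307 genes that fell, 286 (93.2%) were below 0 in shSrsf3 cells against 51.8% of all genes, and 13 were called. No gene was called in opposite directions. The sizes were smaller, with medians of 0.28 in scramble and 0.15 in shSrsf3 cells for genes that rose and of -0.33 and -0.16 for genes that fell, but the genes were chosen for their change in scramble cells, so that the first of each pair is not an unselected estimate. *Klf10* rose by 1.22 (adjusted p = 2.02e-08), *Egr1* by 1.08 (adjusted p = 0.000284), and *Egr3* by 1.48 (adjusted p = 0.000106) in shSrsf3 cells, and *Ccng2* fell by 0.53 (adjusted p = 0.000864) on the log2 scale. *Fos*, which was not called in scramble cells, fell by 0.58 in shSrsf3 cells (adjusted p = 0.0128), and the difference between the lines did not pass the test (-0.55, adjusted p = 0.495). The test of the difference between the responses called 2 genes (0.0133%), and 833 genes had an unadjusted p under 0.05. The differences of -0.94 for *Egr3* (adjusted p = 0.174), -1.39 for *Egr4* (adjusted p = 0.162), and 0.46 for *Ccng2* (adjusted p = 0.144) did not pass it. *Ch25h*, whose product 25-hydroxycholesterol acts in sterol and antiviral signaling, was at 16.9, 17.7, and 16.5 CPM without and 28.6, 28.7, and 29.6 CPM with ligand in scramble cells (0.77 ± 0.052, adjusted p = 2.91e-06). In shSrsf3 cells it was at 21.9, 23.1, and 24.6 CPM without and 22.1, 22.5, and 20.1 CPM with ligand (-0.10, adjusted p = 0.617). The difference between the responses was -0.87 ± 0.074 (adjusted p = 0.000327). The other gene was *Gm6741*, one of the genes with shared sequence.

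**Figure D5:**
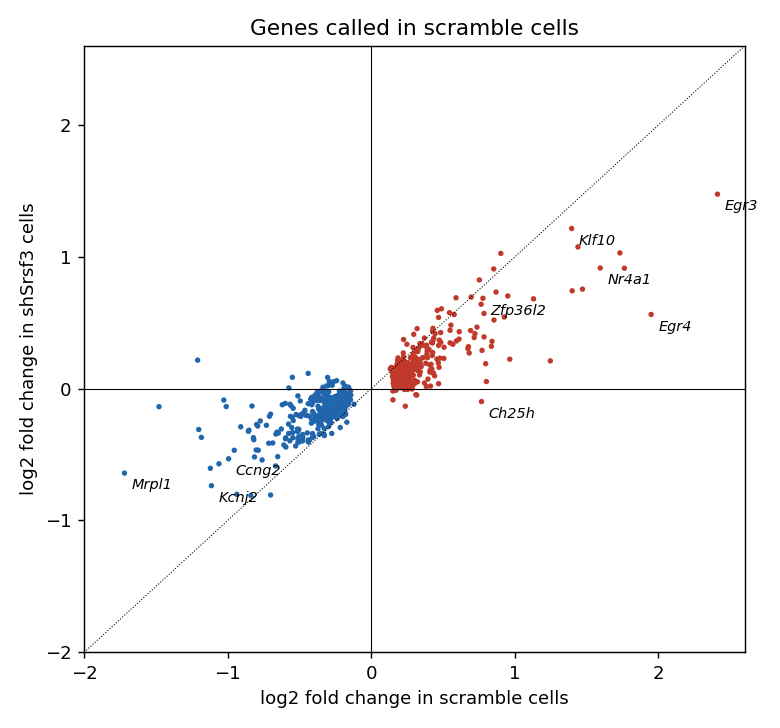
Each point is a gene called in scramble cells, higher (red) or lower (blue), with its log2 fold change upon PDGF-AA in scramble cells on the horizontal axis and in shSrsf3 cells on the vertical axis, and a dotted line at equal values. Of the 608 genes 599 lie within the axes, most between the horizontal zero line and the dotted line, and *Ch25h* lies close to zero on the vertical axis.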

How the data were processed

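RNA was isolated from 3 biological replicates of each of 4 conditions and sequenced from stranded, poly(A)-selected libraries. After trimming with BBDuk, the authors estimated transcript abundance in Salmon (v1.4.0) with the GENCODE M26 transcripts (GRCm39), which tximport summed per gene symbol. The deposited values are expected counts, an estimate of read pairs per gene without library size scaling, and 16.3% were not whole. How tximport scaled counts is not given in the sources used here. Scramble totals were 39174723 to 65707808.

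Expected counts were rounded, filtered with filterByExpr (minimum count 10), and normalized with TMM factors. The quasi-likelihood test of edgeR 4.0.16 was fitted to all 12 samples with 4 group means, and the standard error was derived from the log2 fold change and its F statistic. The common biological coefficient of variation was 0.0701. An exact permutation test of 3 against 3 samples cannot go below p = 0.1. Fold changes of genes with a group at 0 are bounds against 3 counts per library, which cover counting error only. R 4.3.3 ran edgeR, limma 3.58.1, and DESeq2 1.42.0, and Python 3.11 with numpy 2.4.6, pandas 2.3.3, and matplotlib 3.10.9 drew the plots. The fit was tested on simulated data.

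The 140 named genes are the 15 largest rises and 15 largest falls among called protein-coding genes with a mean count of at least 50 and no overlap between groups (572 were eligible), the 10 smallest p, called list members, a fixed set of early response and pathway genes, and called genes with a 2-fold change and fewer counts. The 29 gene lists (513 genes, 480 tested) and the genes of interest were chosen with earlier results of these data known, so that their counts are descriptions. Other genes named in the text are members of these lists that were not called, or were chosen after their values were seen. Some genes that the rule names are not reported here. Positions, exons, and the 31-base sequences shared between genes come from GENCODE M39 on GRCm39, matched by symbol for 14773 of 15037 genes, and promoters from RefSeq on GRCm38.p6. Alternatives were another normalization, test, or low-count filter, a fit of scramble samples alone, a replicate block, thinning, and leaving out samples.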

Additional observations from a re-analysis of the deposited data

Results flagged for a closer look

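The response of 2 genes to PDGF-AA differed between scramble and shSrsf3 cells in edgeR's quasi-likelihood test of the difference itself. For *Ch25h*, the log2 fold change in shSrsf3 cells was lower than that in scramble cells by -0.87 ± 0.074 (adjusted p = 0.000327). All 3 stimulated scramble samples were above all 3 unstimulated ones, while 2 of the 3 stimulated shSrsf3 samples lay within the range of the unstimulated samples of that line. The difference was between -0.89 and -0.85 when single scramble samples were left out, with an adjusted p of 0.000738 to 0.00247. For *Gm6741*, the fitted difference was 8.41 (adjusted p = 0.0187). The fitted value is not a bound, since the gene had 55, 59, and 75 counts without ligand and none with ligand in scramble cells. In shSrsf3 cells it had 122, 87, and 57 counts without and 36, 46, and 12 counts with ligand. With 100% of its 31-base sequences shared with other genes, its reads could have been assigned elsewhere. The call was lost with the replicate block (adjusted p = 0.0768), after thinning (adjusted p = 0.135), and in 5 of the 6 fits without a scramble sample (adjusted p of 0.0555 to 0.0780).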

How the results depend on the processing

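The 608 called genes were 609 (328 higher, 281 lower) with DESeq2 size factors, 877 (498 higher, 379 lower) in DESeq2's test, 670 with limma-voom, 516 after thinning to the smallest library, 659 with a mean count of at least 50, and 1289 with no filter. They were 242 when scramble samples alone were fitted, and 826 with a term for the 3 libraries of lowest mapping rate (-PDGF-AA replicates 1 and 2 and +PDGF-AA replicate 2). A fit without those libraries leaves -PDGF-AA replicate 3 as the only unstimulated scramble sample, so its counts are not given. The count of called genes was 65 when the test required more than a 1.2-fold change (45 higher, 20 lower), and 30 at a fold of at least 2. Of the 242 genes, 236 were among the 608. Without -PDGF-AA replicate 3, 538 of 1470 called genes were among the 608. Without single samples the counts were 243 to 1470. The 30 genes with a 2-fold change were 121 with no filter, 15 with a mean count of at least 50, and 18 to 74 without single samples. The 2 genes whose response differed between the lines were 26 in DESeq2's test, 218 with no filter, 1 with a mean count of at least 50, 8 with the mapping rate term, 16 without the 3 libraries, 1 after thinning, and 1 to 3 without single samples. Same-numbered scramble samples deviated from their group means with correlations of -0.142, 0.201, and 0.175, against -0.343 to 0.239 for samples of unlike number. Deviations from a mean of 3 samples depend on each other, so these values cannot show whether same-numbered samples shared a culture or batch. With the replicate block 625 genes were called, 31 with a 2-fold change, and 1 in the test of the difference. Of the 140 named genes, none that was called changed direction in any setting, whereas *Cdkn2a*, *Dusp1*, *Fos*, *Pdgfa*, and *Pdgfrb*, which were not called, changed sign in some. Groups that do not overlap leave little room for such a change. The call of 1 named gene was lost with DESeq2 size factors and of 48 with scramble samples alone. The causes of these shifts were not tested. Depth limits small changes of low genes, and 2753 tested genes had a mean count under 50.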

Other observations

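The genes in this section lie outside the lists and were chosen after their values were seen, so that they are descriptions. Tests are edgeR's quasi-likelihood test. The genes of each group named here, from patterning factors to splicing factors, were picked because they were called. The number of genes tested in each group was not counted. *Myc* and *Srsf3*, which belong to groups named here, were not called. *Sox4*, a factor of progenitor cells, was at 189, 184, and 157 CPM without and 122, 139, and 123 CPM with ligand (-0.46 ± 0.064, adjusted p = 0.00115), with no overlap between the groups. *Emx2* fell by 0.37, the neural crest factor gene *Pax3* by 0.36, *Meis1* by 0.31, *Irx1* by 0.30, *Tbx18* by 0.24, *Tbx15* and *Foxc1* by 0.19 each, and *Sim2* by 0.16. *Irx3* rose by 0.42 (adjusted p = 0.00822). Of Polycomb group genes, *Cbx2* fell by 0.48, *Cbx8* by 0.41, and *Ezh1* by 0.30.

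Of genes linked to NF-kB, *Rel*, which encodes a subunit (0.61, adjusted p = 6.09e-05), the endonuclease gene *Zc3h12a* (0.59), and the upstream kinase gene *Map3k14* (0.47) rose. *Rel* was at 16.2, 16.7, and 15.4 CPM without and 22.9, 25.5, and 25.3 CPM with ligand. Of genes of the *Myc* network, *Mycn* rose by 0.57, *Mir17hg*, the host gene of a microRNA cluster that *Myc* activates, by 0.48, and the Max partner genes *Mxd1*, *Mxi1*, and *Mxd4*, whose proteins oppose *Myc*, fell by 0.33, 0.24, and 0.21. The receptor genes *Ptger4*, *S1pr3*, and *F2r*, whose products couple to G proteins, rose by 0.69, 0.33, and 0.23. The fatty acid synthesis genes *Fasn* and *Acaca* rose by 0.33 and 0.23, and the Notch modifier gene *Lfng* by 0.55. Of autophagy genes, *Atg14* fell by 0.44, *Vmp1* by 0.29, *Gabarapl1* by 0.23, and *Wipi1* by 0.19. *Irs1* fell by 0.33 and *Pdcd4*, a translation inhibitor gene, by 0.25. Of the splicing factor genes of the SR family, *Srsf7* rose by 0.26 and *Srsf6* by 0.20. In scramble cells -PDGF-AA replicate 3 was the sample closest to the stimulated samples for both, at 92.1 CPM for *Srsf7* and 274 CPM for *Srsf6*.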
